A study of Mus musculus with 4 samples.

Results

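The caveolins and cavins are the proteins that build caveolae, and their transcripts were read here in sorted epidermal cells of newborn mice with and without induction of the microRNA miR-203. The members are Cav1, Cav2, Cav3, Cavin1 (listed earlier as Ptrf), Cavin2 (Sdpr) and Cavin3 (Prkcdbp). They were taken as every probe set annotated to exactly 1 of these 6 genes, which gave 11 probe sets out of 34945 single-gene probe sets that stand for 18193 genes. The family was taken up because Cav1 was already known to be among the lowest genes of the induced arrays. The differences between induced and control arrays are therefore given for its members as a description, with no test.

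Both groups were FVB littermates at postnatal day 4, and cells were taken 24 h after doxycycline was injected. The induced animals carried K14-rtTA, TRE-miR-203 and K14-H2BGFP, so that the keratin 14 promoter drove the doxycycline-dependent activator rtTA in basal keratinocytes and the activator drove miR-203. The controls, whose labels give the genotype as wild type, carried TRE-miR-203 and K14-H2BGFP without the activator. Effects of the activator and of miR-203 cannot be told apart by this design. There were 2 control and 2 induced arrays, called biological replicates in the labels, so few that every value is imprecise. How the cells were gated in the sort is not stated in the labels.

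Caveolae are flask-shaped pits of the plasma membrane, rich in cholesterol, that buffer membrane tension and gather signalling receptors. Caveolins are hairpin proteins inserted in the inner leaflet, and cavins are soluble coat proteins that join them there, so both families are needed to form the pit. In skin they are abundant in endothelium, fibroblasts and adipocytes as well as in basal keratinocytes. Cav1 is one of the published targets of miR-203, a microRNA of the differentiating epidermis that pairs with messenger RNAs through its seed.

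The mature strands of the miR-203 hairpin are shown because they define what was induced, with the seed (bases 2 to 8) in capitals. The RefSeq table (GRCm38.p6) places them on the plus strand, the 3p strand at chr12:112130927-112130948 and the 5p strand at chr12:112130889-112130910. Among 1679 mature mouse miRNAs of that table, 1 carried the 3p seed UGAAAUG, which is the 3p strand itself. The array does not measure the mature strands, so the induction was not checked here.
mmu-miR-203-3p: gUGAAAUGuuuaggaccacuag
mmu-miR-203-5p: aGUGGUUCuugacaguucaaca

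Values are log2 RMA values, on which a difference of 1 is a doubling, and they ran from 2.09 to 14.6 on all arrays together. Pearson's r over the 27022 probe sets that passed the filter on low values (a mean log2 value of at least 4.17) was 0.995 between the controls and 0.994 between the induced arrays, against 0.991 to 0.993 between groups. Induced replicate 1 stood apart in sex-linked transcripts. Its log2 value for the Y-linked gene Eif2s3y was 9.38 against 2.52 to 2.82 on the other 3 arrays, and its value for Xist, the RNA of the inactive X chromosome, was 5.86 against 10.57 to 11.19. For that reason the differences of the members, and those of other named genes that are moved by over 1.5 times by this array, are also given without it. In limma's test over all kept probe sets, 0 had a Benjamini-Hochberg adjusted p under 0.05 (a called share of 0%), with a lowest adjusted p of 0.158 and 2728 at an unadjusted p under 0.05. When eBayes was run with its trend and robust options, 126 were called.

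Cav1, the caveolin that forms the scaffold of caveolae in most tissues, was lower in the induced arrays by a margin wider than the spread between replicates. Its single probe set (1449145_a_at) had log2 values of 10.80 and 10.74 in the controls, against 9.88 and 9.98 in the induced arrays. Both induced arrays lay below both controls, and the gap between the groups was 0.76, against ranges of 0.05 and 0.11 within them. Here and below, SE is the moderated standard error of limma, which draws the spread of each probe set towards that of all kept ones. The group means of 10.77 ± 0.04 (SD, n = 2) and 9.93 ± 0.08 differed by -0.84 ± 0.10 (SE), which is 1.79-fold lower. The difference ran from -0.89 to -0.79 when each array was left out in turn and was -0.79 without induced replicate 1. Of the 27022 kept probe sets, 49 (Cav1 included) had a difference as low or lower.

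Cav2, which joins Cav1 in mixed oligomers and depends on it to reach the cell surface, was not lower. Its bright probe set (1417327_at) had values of 10.33 and 10.24 in the controls, against 10.25 and 10.39 in the induced arrays. The groups overlapped, with the highest value on an induced array and a difference of 0.04 ± 0.11 (SE), or 0.11 without induced replicate 1. A dimmer probe set (1425955_at) read 5.06 and 5.12 in the controls, against 5.20 and 5.15 in the induced arrays. There both induced arrays lay above both controls by 0.03, a gap smaller than the range within the controls (0.07), and the difference was 0.09 ± 0.10 (0.06 without induced replicate 1). Taken within each array, the log2 value of Cav1 minus that of the bright Cav2 probe set was lower by 0.88 in the induced group (change -0.88), so their differences were unequal.

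Cav3, the caveolin of striated muscle, stayed under the filter on all 4 arrays. Its probe set (1418413_at) read 3.35 and 3.26 in the controls, against 3.19 and 3.07 in the induced arrays, a difference of -0.17 (-0.24 without induced replicate 1) between values that are at the dim end of the array. The mean over the arrays lay at percentile 16.9 of all probe sets. No fold is given for it.

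**Figure D1:**
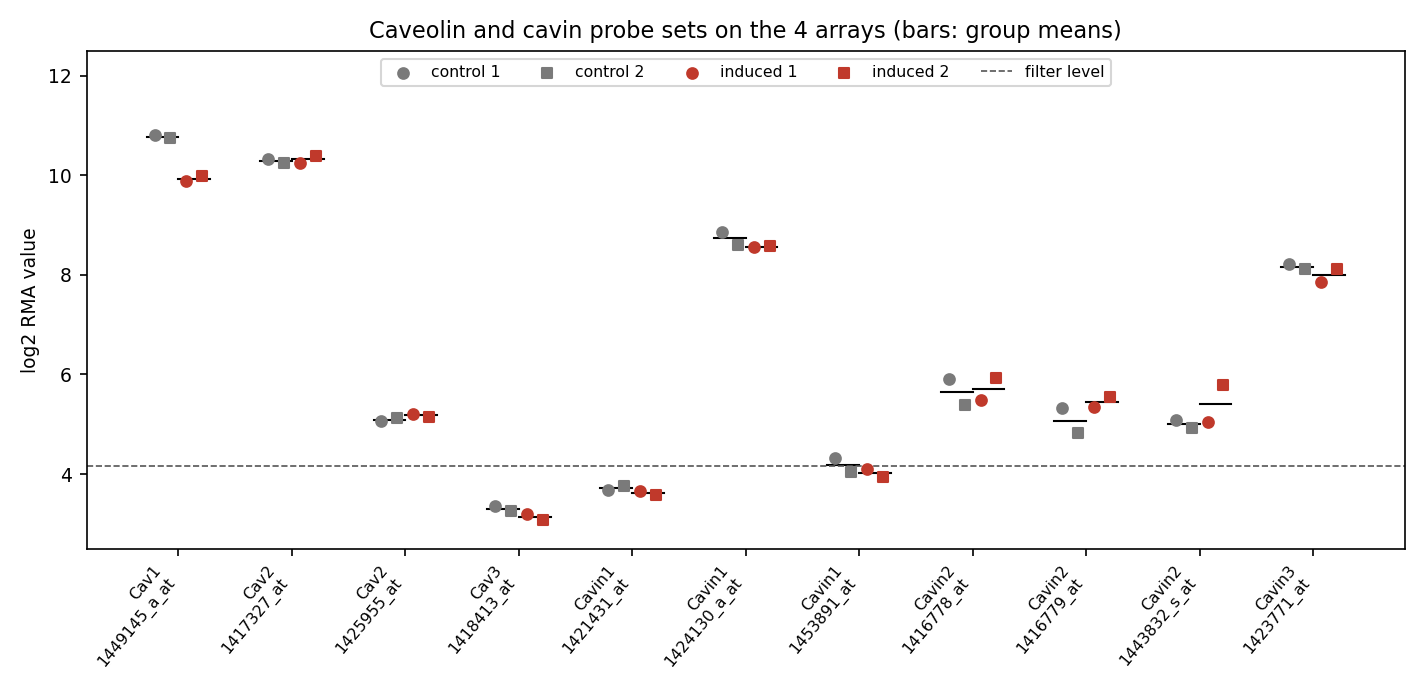
Log2 RMA value (vertical axis) of each of the 11 caveolin and cavin probe sets on the 4 arrays, controls in grey and induced in red, with circles for replicate 1, squares for replicate 2 and bars for the group means. The Cav1 points part into 10.74 to 10.80 and 9.88 to 9.98, while the points of the other probe sets lie close together or overlap, and 3 probe sets have means under the dashed filter level of 4.17.

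Cavin1, the coat protein without which caveolae do not form, has 3 probe sets, of which 1 passed the filter. That probe set (1424130_a_at) had values of 8.87 and 8.59 in the controls, against 8.55 and 8.57 in the induced arrays. The groups were parted by 0.01, because control replicate 2 lay close to the induced arrays and control replicate 1 stood above all others. The difference was -0.16 ± 0.12 (SE), or -0.15 without induced replicate 1, and without control replicate 1 it was -0.02. The remaining probe sets are dim. The first (1421431_at) read 3.68 and 3.75 against 3.65 and 3.58, a difference of -0.10, and the second (1453891_at) read 4.32 and 4.05 against 4.11 and 3.95, a difference of -0.15 between overlapping groups. The mean of the last (4.11) was just under the filter level of 4.17, and the dimmest member probe set above it was that of Cav2 with control and induced means of 5.09 and 5.18. Without induced replicate 1 the differences of these dim probe sets were -0.13 and -0.23.

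Cavin3, a coat subunit that binds protein kinase C delta, was lower by a small amount that rested on 1 array. Its probe set (1423771_at) had values of 8.21 and 8.12 in the controls, against 7.86 and 8.12 in the induced arrays. Induced replicate 2 and control replicate 2 were parted by 0.002, so induced replicate 1 alone was clearly low. The difference was -0.17 ± 0.12 (SE), and without induced replicate 1 it was -0.05.

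Cavin2, a coat subunit that recruits Cavin1 and shapes the caveolar membrane, varied widely between replicates. Its first probe set (1416778_at) had values of 5.90 and 5.38 in the controls, against 5.48 and 5.92 in the induced arrays, with overlapping groups. The second (1416779_at) read 5.32 and 4.83 in the controls, against 5.34 and 5.54 in the induced arrays, and the third (1443832_s_at) read 5.09 and 4.93 against 5.04 and 5.78. On all 3 probe sets control replicate 2 was the lowest array and induced replicate 2 the highest. The differences were 0.06 ± 0.22 (moderated SE), 0.37 ± 0.18 and 0.40 ± 0.24 in the same order, with larger unmoderated SEs of 0.34, 0.26 and 0.38. Without induced replicate 1 they were 0.28, 0.47 and 0.77, and without induced replicate 2 they were -0.16, 0.27 and 0.03, so that 1 array set most of the difference of the third probe set and its size for the gene is uncertain. The second probe set alone had both induced arrays above both controls, by 0.02.

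Over the whole family, 5 of the 11 probe sets had both induced arrays below both controls, where 17.8% of all 45037 probe sets did, and 2 had both above, where 18.5% did. Nothing is read from these counts, since the family was chosen on this contrast. For 4 of the 5 lower probe sets (Cav3, Cavin3 and 2 of Cavin1) the difference in log2 value was between -0.17 and -0.10. The median difference over the 11 probe sets was -0.10, against -0.002 over all probe sets, and 1 of the 11, that of Cav1, differed by more than 1.5-fold.

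**Figure D2:**
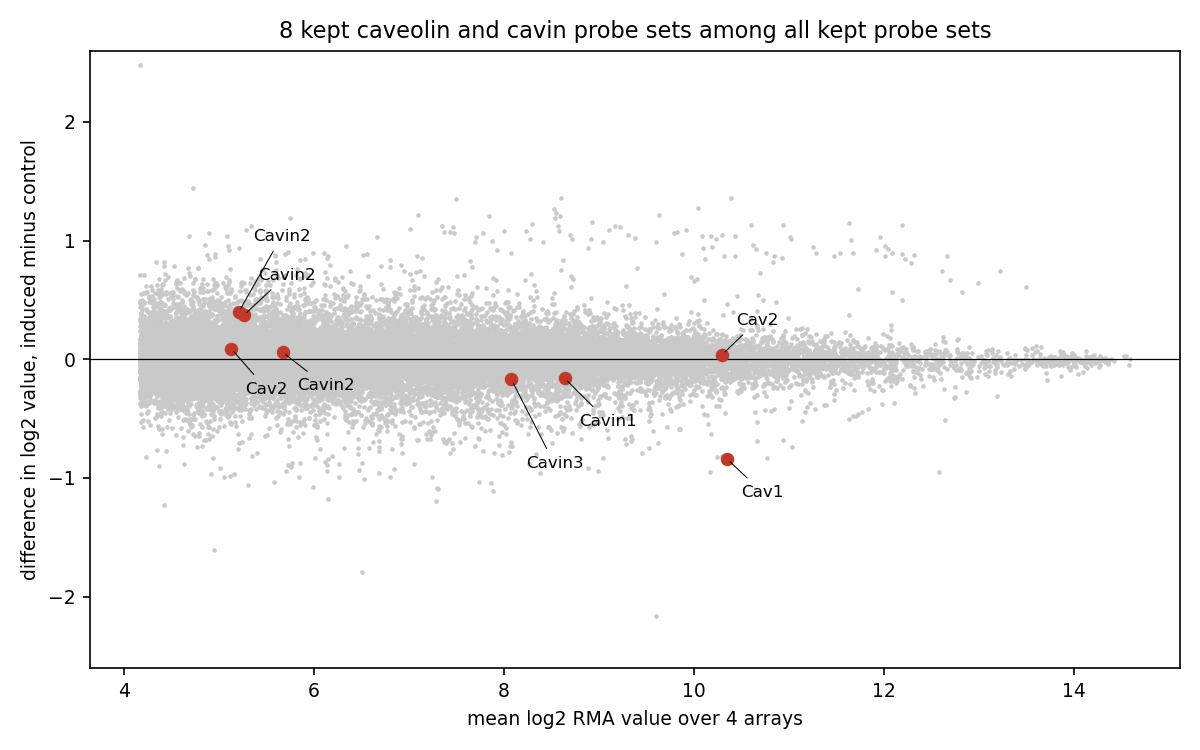
Difference in log2 value, induced minus control (vertical axis), against the mean log2 value over the 4 arrays (horizontal axis) for the 27022 kept probe sets in grey, 3 of which lie outside the plotted range, with the 8 kept member probe sets in red. Cav1 lies at -0.84 below the grey band, while Cav2, at nearly the same mean level, lies at 0.04 inside it.

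Cav2 and Cav1 lie side by side on chromosome 6 in the RefSeq gene table, and the 3 protein-coding genes on each side were measured with the same fit. None of the 5 that passed the filter was called, and 0 had an unadjusted p under 0.05, with a lowest adjusted p of 0.592 (limma, Benjamini-Hochberg). Tes, which encodes a focal adhesion protein and is the nearest gene on the Cav2 side, had values of 7.66 and 7.56 in the controls, against 7.47 and 7.35 in the induced arrays, a difference of -0.20 ± 0.10 (SE), or -0.26 without induced replicate 1. Its groups did not overlap, as for 19.3% of all kept genes in that direction. On the Cav1 side, the receptor tyrosine kinase gene Met differed by -0.02 ± 0.10, the actin capping protein gene Capza2 by 0.03 ± 0.10 and St7 by -0.06 ± 0.18, all with overlapping groups. Without induced replicate 1 these were 0.01, 0.03 and -0.20. Mdfic, which encodes a regulator of transcription factors, differed by 0.12 ± 0.12 with overlap and by 0.00 without that array, and Tfec was under the filter (means of 2.94 and 2.92). Of the pair and these 5 genes, Cav1 had the largest difference. Nothing is read from that, since Cav1 was taken up for its difference in this contrast.

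The sequence before the start of Cav1 and Cav2 is shown because these neighbours gave unlike differences. The 250 bases end at the base before the RefSeq start (GRCm38.p6, plus strand), at chr6:17306085-17306334 for Cav1 and chr6:17280935-17281184 for Cav2. Capitals mark matches, on either strand, to the GC box GGGCGG, the CCAAT box CCAAT, the TATA box TATAAA, the AP-1 motif TGANTCA and the E2F motif TTTNNCGC.
Cav1: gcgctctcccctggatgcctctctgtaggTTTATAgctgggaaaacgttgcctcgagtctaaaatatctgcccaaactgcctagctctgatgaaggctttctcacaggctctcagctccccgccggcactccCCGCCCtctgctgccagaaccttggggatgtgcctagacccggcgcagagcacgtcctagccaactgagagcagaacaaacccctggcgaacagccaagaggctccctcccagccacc
Cav2: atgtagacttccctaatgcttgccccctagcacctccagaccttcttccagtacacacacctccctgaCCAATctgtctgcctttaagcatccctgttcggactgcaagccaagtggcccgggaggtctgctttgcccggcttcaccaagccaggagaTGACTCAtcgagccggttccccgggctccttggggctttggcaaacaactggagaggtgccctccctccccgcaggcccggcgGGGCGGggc

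The Cav1 window held 1 GC box and 1 TATA box, both on the opposite strand, whose left ends lay 118 and 221 bases before the start. The Cav2 window held a CCAAT box at 182, an AP-1 motif at 92 and a GC box at 9 bases before the start, and no marked matches overlapped. Of the 32851 promoter windows of 250 bases in the table, 32.7% held a GC box, 33.8% a CCAAT box, 12.4% a TATA box and 6.75% an AP-1 motif. The E2F motif, held by 4.28% of windows, had no match in either. Base composition was similar, with 59.6% G or C and 10 CpG in the Cav1 window and 62.0% and 10 in that of Cav2, against medians of 52.4% and 6. The table holds a further start for Cav1, which was not shown. These matches describe the letters and were not tested against the arrays.

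Among other genes that work at caveolae no call was made. The list held 32 genes, of which 29 had a probe set above the filter, 2 were under it (Pacsin1 and Cavin4, the muscle cavin) and Pacsin2 was not named by a single-gene probe set here. Of the 29, 0 were called over all probe sets (called share of all kept genes 0%), 1 had an unadjusted p under 0.05, where 9.62% of all kept genes did, and the median difference was 0.02 against -0.001 over the 13489 kept genes (0.05 without induced replicate 1). Both induced arrays lay below both controls for 1 of them, where 19.3% of kept genes did, and above for 8, where 20.1% did.

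Among the genes that shape the membrane and the caveolar neck (9 measured), Ror1, a receptor tyrosine kinase that holds caveolins and Cavin1 together, had values of 5.71 and 5.53 in the controls, against 5.45 and 5.20 in the induced arrays, and a difference of -0.29 ± 0.13 (SE, adjusted p = 0.541), or -0.42 without induced replicate 1 and -0.17 without induced replicate 2. Ehd1, an ATPase of membrane recycling, differed by 0.17 ± 0.13 with overlap (0.02 without control replicate 2). Ehd2, the ATPase that rings the neck of caveolae, differed by 0.05 ± 0.13 with overlap. Its difference was 0.03 without induced replicate 1 and -0.10 without control replicate 2, and 1 of 2 further Ehd2 probe sets above the filter read -0.11. All 3 raft scaffold genes had both induced arrays above both controls, where 20.1% of kept genes did. The gaps between the groups were 0.10 (Flot1), 0.04 (Flot2) and 0.06 (Stom). The flotillin genes Flot1 and Flot2 differed by 0.18 ± 0.10 and 0.23 ± 0.14, with adjusted p values of 0.620 and 0.674 (limma). Flot2 read 6.73 and 6.72 in the controls, against 6.77 and 7.14 in the induced arrays, so that its difference rested on induced replicate 2. It was 0.04 without that array and 0.41 without induced replicate 1. Stom differed by 0.12 ± 0.10, and 1 of 3 further Stom probe sets read -0.08. Flotillins form raft domains that are distinct from caveolae.

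Of the 4 kinases that act on caveolin, Fyn, a Src family kinase, was the list member with an unadjusted p under 0.05. It read 6.51 and 6.48 in the controls, against 6.92 and 6.83 in the induced arrays, a difference of 0.38 ± 0.10 that did not pass over all probe sets (limma, adjusted p = 0.308). Yes1 differed by -0.17 ± 0.12 with overlapping groups, while the 2 further probe sets of Yes1 above the filter read the other way (0.12 and 0.65). Src itself differed by -0.13 ± 0.14, and by 0.02 without induced replicate 1. Of the 11 genes for receptors and enzymes found at caveolae, Tgfbr2, a TGF-beta receptor, differed by 0.23 ± 0.10 (adjusted p = 0.550), and its further probe set read -0.06. Igf1r differed by 0.17 ± 0.15 with overlap (0.35 without induced replicate 1 and -0.01 without induced replicate 2), and 1 of 4 further Igf1r probe sets read -0.08. The actin-binding protein gene Flna, which tethers caveolae to stress fibres, differed by 0.01 ± 0.11 (0.12 without induced replicate 1), and Ilk by 0.06 ± 0.10.

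**Figure D3:**
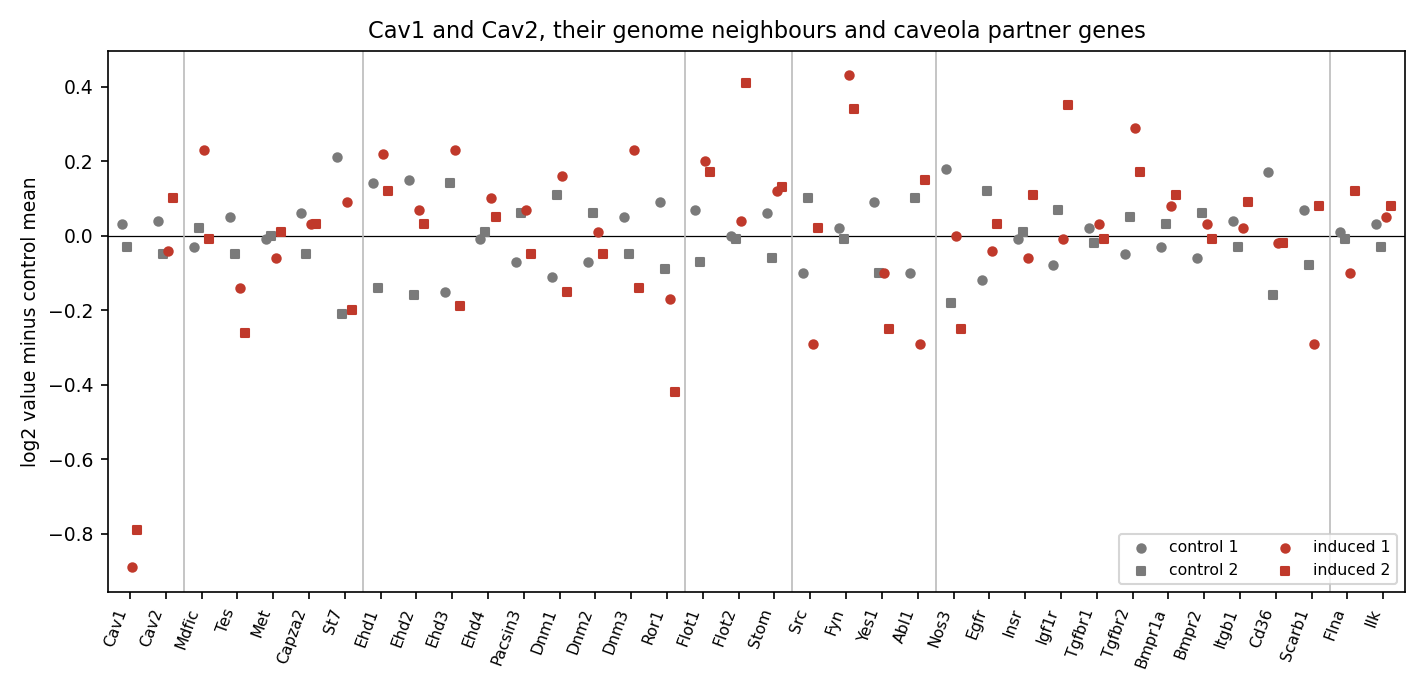
Log2 value on each array minus the mean of the 2 controls (vertical axis) for the Cav1 probe set and the bright Cav2 probe set, then the 5 kept neighbours of the pair, then the 29 kept caveola partner genes by role, parted by grey lines. The induced points of Cav1 lie at -0.89 and -0.79, and those of every other gene shown lie between -0.42 and 0.43.

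The pattern of Cav1 over the 4 arrays was set against that of the other 13488 kept genes, by the root mean square difference between array values after each gene was centred on its mean. The closest was Zc3hav1l at 0.036, with values of 6.59 and 6.58 in the controls, against 5.67 and 5.72 in the induced arrays. Next came Adk (0.037) and Ahcy (0.046), which encode enzymes that clear adenosine and S-adenosylhomocysteine, with differences of -0.83 and -0.75. Sostdc1, a secreted antagonist of BMP and Wnt signals, followed at 0.050, with 11.19 and 11.18 in the controls, against 10.23 and 10.48 in the induced arrays. The fifth, Zfand4 at 0.051, had induced values of 3.96 and 4.17, which reach the filter level. None of the closest 5 was a caveolin or cavin. Cavin3 ranked 1514 at 0.336, Cavin1 1884 at 0.349, Cav2 7502 at 0.438 and Cavin2 10799 at 0.492. With 4 arrays this ranking describes these libraries only.

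Marker levels of the cells that the sort could hold are given because caveolins and cavins are made by several of them, and in a bulk sample fewer cells of a type and less RNA per cell cannot be told apart. The label of epidermal cells was borne by the markers, with all 9 basal and all 8 suprabasal keratinocyte markers above the filter and Krt14 between 13.96 and 14.13. Of the 9 basal markers, 0 were called over all probe sets (limma, lowest adjusted p = 0.188). An unadjusted p under 0.05 was found for 3 of the 9, where 9.62% of all kept genes had one. Both induced arrays lay below both controls for 6 of the 9, where 19.3% of kept genes did, and above for Dst, where 20.1% did. The median difference of the basal markers was -0.13, with the hemidesmosomal collagen gene Col17a1 at -0.71 and Krt14 at -0.13. Itgb4 differed by 0.09 (0.23 without induced replicate 1). Dst differed by 0.25, but 2 of its 3 further kept probe sets read -0.23 and -0.16. Trp63 differed by -0.30, but 2 of its 3 further kept probe sets read 0.10 and 0.46. The summed level of the basal markers (the linear scale of the array) was 43900 and 44400 in the controls, against 39600 and 38300 in the induced arrays. Of the 8 suprabasal markers, 0 were called and 0 had an unadjusted p under 0.05 (limma), with a smaller median of -0.05. Both induced arrays lay below both controls for 5 of the 8, where 19.3% of kept genes did. The gaps between the groups of those 5 were small, from 0.003 (Krt10) to 0.045 (Dsc1). They summed to 104000 and 103000 in the controls, against 102000 and 98300 in the induced arrays. Both keratinocyte sums were thus lower in the induced group, as Cav1 was, with median differences of -0.13 and -0.05 beside -0.84 for Cav1. Linear sums weigh the brightest markers most, such as Krt14 in the basal list and Krt10 (up to 14.32) in the suprabasal list. These lie near the highest value of all arrays (14.6), as does Lor, which read 14.25 on every array. The endothelial sum, given next, was also lower on both induced arrays. The part of these cells in the Cav1 difference was not tested.

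The endothelial list was mostly dim, with 6 of 11 markers under the filter, among them Pecam1 (2.81 to 3.42), Cdh5, Tie1 and Tek. The 5 kept markers were Egfl7 (6.34 to 6.58), Eng (5.68 to 5.82), Kdr (5.06 to 5.63), Esam (4.97 to 5.17) and Cldn5 (4.23 to 4.53). The summed level of the list was 303 and 321 in the controls, against 293 and 297 in the induced arrays. The median difference over the kept markers was -0.06. The dermal fibroblast list had 3 kept markers of 8, with Col1a1 under the filter on every array (3.04 to 3.32) and the proteoglycan gene Dcn clearly above it, at 8.23 and 8.04 in the controls and at 7.57 and 8.42 in induced replicates 1 and 2. Col1a2 (4.97 to 5.43) and Col3a1 (4.54 to 6.13) were also above it. Its summed level of 414 and 396 in the controls, against 285 and 496 in the induced arrays overlapped. Smooth muscle and pericyte markers summed to 199 and 215 against 183 and 235, again with overlap.

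Adipocyte markers were split. Adipoq, Cidec and Lep were under the filter, Fabp4 was higher by 1.08 and Lpl lower by 0.56 (difference -0.56, or -0.26 without induced replicate 1), both with groups that did not overlap, and the summed level was 590 and 627 against 820 and 834. Among skeletal muscle markers, the cells in which Cav3 is the main caveolin, 5 of 8 were under the filter, Myog (3.83 to 4.07) and the myosin heavy chain genes Myh1, Myh4 and Myh8 included, while the light chain gene Mylpf was above it (6.81 to 7.13). Melanocyte markers summed to 4050 and 4240 in the controls and to 3700 and 5620 in induced replicates 1 and 2. Induced replicate 2, the highest array for all 3 Cavin2 probe sets, was also the highest for the melanocyte, fibroblast, smooth muscle and adipocyte sums. It was the lowest for both keratinocyte sums and for the skeletal muscle (242) and immune (3000) sums. The adipocyte sums of induced replicates 1 and 2 were close (820 and 834). Fabp4 gave more to them than any other listed marker, and it was higher on induced replicate 1 (9.24) than on induced replicate 2 (9.01). That sum thus follows mainly 1 gene. The endothelial sum was highest on control replicate 2 (321). The lowest array for Cavin2 was control replicate 2, while induced replicate 1 was lowest for the melanocyte, fibroblast and smooth muscle sums and control replicate 1 for the adipocyte sum. The part of these cells in the Cavin2 values was not tested. Immune markers summed to 4060 and 3030 in the controls, against 3980 and 3000 in the induced arrays, with no shift between groups.

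**Figure D4:**
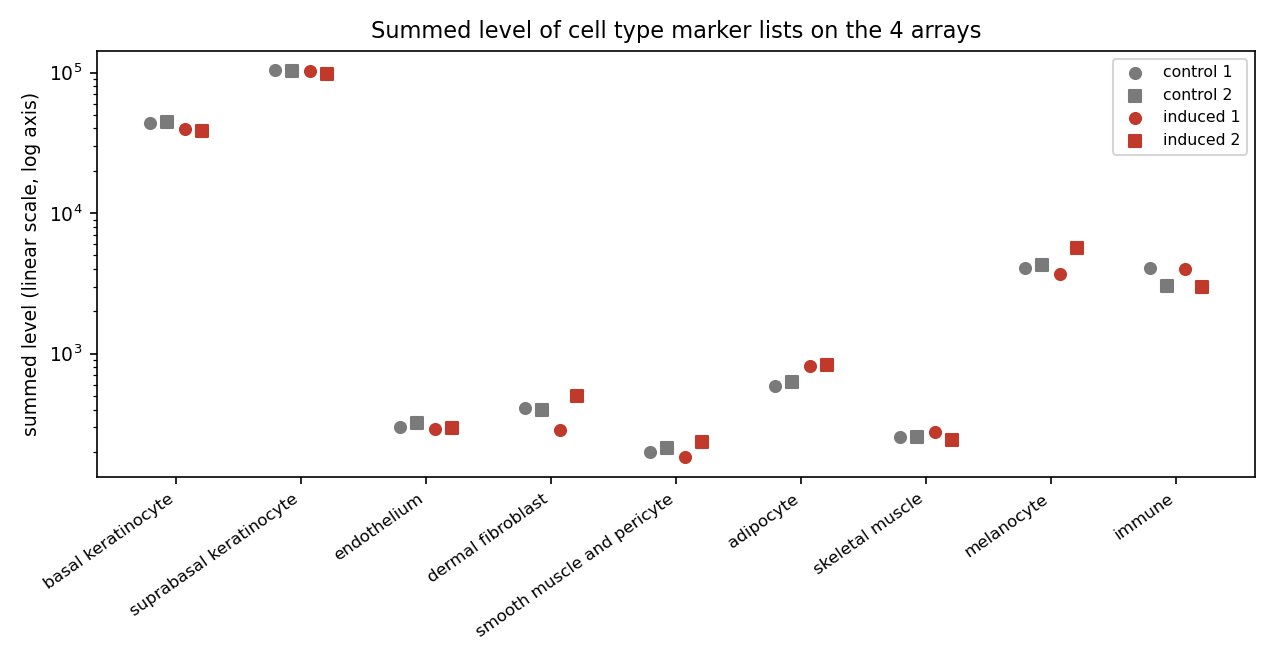
Summed level of each cell type marker list (vertical axis, sum of the linear values of its probe sets, logarithmic scale) on the 4 arrays, controls in grey and induced in red. The basal keratinocyte sums lie at 43900 and 44400 in the controls and 38300 to 39600 in the induced arrays, and the endothelial, fibroblast and both muscle lists sum to at most 496 on every array.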

How the data were processed

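Each RNA (0.5 ug, biotin-labelled per the labels' protocols) was hybridised to its own Affymetrix mouse array. The deposited values are log2 values made by the authors with RMA, per the submitters' processing notes, which corrects background, quantile normalizes between arrays and summarises per probe set. Its version, the chip definition and a genome build are not stated there. Quantile normalization hides a change in total RNA per cell. No further normalization was applied.

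Of 45101 probe sets, 64 control probe sets were left out. The platform annotation gave 34945 of the other 45037 a single gene, 932 several (none named) and did not list 9160, and 34741 matched the RefSeq table (GRCm38.p6) for current symbols. Kept were probe sets whose mean log2 value reached the 40th percentile. Induced and control arrays were compared in R 4.3.3 by the linear models of limma 3.58.1 (functions lmFit and eBayes; a probe set was called where its two-sided p stayed under 0.05 after Benjamini-Hochberg adjustment over all 27022), with 2 residual degrees of freedom. The test was also run on simulated data with independent noise. That outcome is not reported here, so nothing about the lack of calls is read from it. A gene outside the family is represented by its brightest kept probe set. Nothing says that the replicates came from separate litters. The p-values set each difference against the spread between these samples, which limma draws towards that of all kept probe sets.

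The members, lists and alternatives were chosen with earlier results of these data known. Named are all member probe sets, the measured neighbours, the 2 partner genes per role with the largest absolute moderated statistic (Ehd2, Stom and Src were added after their values were seen) and the 5 genes closest to Cav1, clone and predicted names skipped. The alternatives were no filter, a filter at the 60th percentile, the trend and robust options of eBayes, centring on array medians, renewed quantile normalization, an adjusted p under 0.10, the mean of a gene's kept probe sets, leaving out each array in turn, and a block on the replicate number. No target sites were analysed here.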

Additional observations from a re-analysis of the deposited data

How the results depend on the processing

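Cav1 kept a difference between -0.89 and -0.79 under all alternatives run for it. The number of member probe sets with both induced arrays below both controls, 5 as reported, was 3 with centring on array medians. There the groups of the bright Cavin1 probe set and of Cavin3 overlapped, as did those of the second Cavin2 probe set. Leaving out an array cannot lower this count, because groups that are parted stay parted with fewer arrays. Its range of 5 to 6 in those runs therefore says nothing about how steady it is. The count of called probe sets was 126 with trend and robust and ran from 0 to 6 when each array was left out, the 6 coming without induced replicate 2. Those fits take the spread of a lone array from the other group. Without induced replicate 2, the induced group was replicate 1 alone, the array that stood apart in sex-linked transcripts. Eif2s3y then differed by 6.71 and Xist by -4.83. The cause of the calls was not tested. The partner list and the neighbours had 0 calls under every alternative run. With the replicate block (replicate number as a term) 0 probe sets were called. The differences between replicates 1 and 2 correlated at -0.10 between the groups, so the numbers were not taken to pair the arrays, and the crossed pairing, added after seeing the data, also called 0. The bright Cav2 probe set ran from -0.04 to 0.11 and the first Cavin2 probe set from -0.20 to 0.32, so that neither has a settled sign. Values under the filter level, as for Cav3, limit what can be said of size.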
